A study of Sus scrofa with 24 samples.

Results

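A set of 6 genes that mark nerve fibres and glia was followed in the ovary of Chenghua sows, a Chinese pig breed. Of the 6, STMN2, GAP43 and PRPH are neuronal and S100B, SOX10 and NGFR glial. They were chosen by symbol as known markers, with earlier results of these data known. All 6 were present among the 18753 genes measured. Polyadenylated mRNA, captured on oligo(dT) beads, was sequenced from 12 ovaries, 3 at each of 4 stages: postnatal day 3 (Day 3), postnatal day 120 at the entry into puberty (Puberty), 1 year of age at sexual maturity (Year 1) and day 105 of pregnancy (Pregnancy). The sows of all 4 stages were healthy and kept under like conditions, and the labels name no treatment. The age of the pregnant sows was not given. Each library came from a different sow and from fragments of an ovary, so the spread within a stage can come from the sow or from the fragment.

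The ovary is reached by sympathetic fibres, with sensory and parasympathetic fibres beside them, and these run with blood vessels in the medulla and around follicles. The nerve cell bodies lie mostly outside the organ, so that most of a fibre's RNA stays in distant ganglia, while the Schwann cells that wrap the fibres carry their own nuclei and RNA into the tissue. STMN2 (stathmin-2) and GAP43 act in growing axons, PRPH (peripherin) is an intermediate filament of peripheral neurons, S100B is a calcium-binding protein of glia, SOX10 is the transcription factor that sets Schwann cell identity, and NGFR is the p75 receptor shared by the neurotrophins. None of the 6 is limited to nerve: S100B is also made by fat and cartilage cells, SOX10 by melanocytes, and NGFR by some stromal cells. In ovary tissue, fewer cells of a type and less RNA per cell cannot be told apart.

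Library totals ran from 14615479 to 16187920 counts. At this depth several of the 6 genes rested on few counts, as low as 0 for SOX10, 1 for NGFR and 3 for GAP43 in a library. Year 1 replicate 1 and Pregnancy replicate 3 stood apart from their stage mates, at root mean square log2 distances of 1.34 and 1.20 from the nearest of them, against 0.44 to 0.76 for the other 10 libraries. Summed over 9 genes of theca and luteal steroid cells, the level was 5074 TPM in Year 1 replicate 1 against 24148 and 20840 in replicates 2 and 3. It was 72314 in Pregnancy replicate 3 against 2152 and 1709 in replicates 1 and 2. As a check of the ovary label, 10 oocyte genes summed to between 1599 and 2531 TPM at Day 3 and to between 8.67 and 218 TPM in the 9 later libraries.

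STMN2 showed the widest range of the 6 genes. It lies on chromosome 4, 56952968 to 57006744 (Sscrofa11.1, minus strand, gene ID 100156768). At Day 3 it was at 42.4, 18.1 and 22.7 TPM in replicates 1 to 3, where TPM is a level scaled to the library total and to gene length. It stood at 0.20, 0.45 and 0.49 TPM at Puberty, so that every Day 3 library was far above every Puberty library. At Year 1 it was at 1.65, 8.10 and 1.22 TPM, and in Pregnancy at 3.49, 1.18 and 0.23 TPM. The Year 1 libraries all lay above Puberty and below Day 3, whereas the Pregnancy libraries overlapped both Puberty and Year 1. The Day 3 mean of 27.7 ± 12.9 TPM (SD, n = 3) was above that of 70.7% of genes, and the Puberty mean of 0.38 ± 0.16 TPM above that of 22.2%. The counts behind these values were 318 to 786 at Day 3 but 4, 9 and 9 at Puberty. A RefSeq long noncoding RNA gene, LOC110260269 (chromosome 4, 56972440 to 56975549), lies within the span of STMN2. Whether the exons of the 2 genes overlap was not checked, and whether the counting used strand is not given in the sources used here. Its part in the STMN2 counts was not tested.

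Between Day 3 and Puberty STMN2 fell by 5.84 ± 1.10 on the log2 scale (SE), which is 57.4-fold lower (edgeR quasi-likelihood test over 15699 genes, adjusted p = 0.00391). The fall was called in all 12 fits that left out 1 library. In Pregnancy it fell by 3.48 ± 0.96 from Day 3 (adjusted p = 0.0186), a call lost without Day 3 replicate 1 or Pregnancy replicate 2 (adjusted p = 0.058 for each). From Puberty to Year 1 the log2 change was 3.79 ± 1.03 and did not pass in edgeR (adjusted p = 0.0663). That change passed without Year 1 replicate 1 (adjusted p = 0.0125) or Pregnancy replicate 3 (0.0284). The log2 change of -2.06 ± 0.90 from Day 3 to Year 1 likewise missed the threshold (edgeR adjusted p = 0.0798), and passed without Year 1 replicate 2 (-3.55, adjusted p = 0.0125) or Pregnancy replicate 3 (0.0436). In order of stage means STMN2 ran Day 3, Year 1, Pregnancy, Puberty, and no neighbours in that order differed by edgeR's test.

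GAP43, a protein of growth cones (chromosome 13, 144364314 to 144458136, minus strand, gene ID 100623423), was low at every stage. It was at 0.40, 1.59 and 1.27 TPM at Day 3 and at 0.65, 0.96 and 1.12 TPM at Puberty. Year 1 held 0.43, 0.21 and 0.28 TPM, and Pregnancy 0.88, 0.90 and 1.50 TPM. The Year 1 libraries were the lowest apart from Day 3 replicate 1, which overlapped them at 5 counts. The largest log2 change was 1.72 ± 0.56, from Year 1 to Pregnancy, where the 2 stages did not overlap but edgeR made no call (adjusted p = 0.0874, 95% interval 0.48 to 2.97). From Day 3 to Puberty the log2 change was 0.08 ± 0.52 (edgeR adjusted p = 0.923), and its 95% interval ran from -1.08 to 1.23. Over the same 2 stages the interval of STMN2 ran from -8.28 to -3.41 and did not overlap that of GAP43. From Day 3 to Year 1 GAP43 had a log2 change of -1.07 ± 0.56 (edgeR adjusted p = 0.139), which passed without Day 3 replicate 1 (-1.48, adjusted p = 0.0447).

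PRPH (chromosome 5, 15283399 to 15288800, plus strand, gene ID 100152434) had its highest stage mean at Day 3, with libraries at 3.03, 2.43 and 1.74 TPM. It was at 0.45, 0.35 and 0.91 TPM at Puberty and at 0.97, 0.22 and 0.23 TPM at Year 1. In Pregnancy it was at 0.49, 0.61 and 1.96 TPM, and replicate 3 lay within the Day 3 TPM range while its stage mates lay within the Puberty range. On TMM-scaled CPM, the scale of the tests, replicate 3 was at 5.81, above the Day 3 libraries at 5.45, 4.37 and 3.11. No pair of stages passed for PRPH in edgeR with all 12 libraries and TMM scaling. The log2 changes from Day 3 were -1.75 ± 0.69 at Puberty, -1.66 ± 0.69 at Year 1 and -0.56 ± 0.66 in Pregnancy (edgeR adjusted p = 0.0797, 0.0678 and 0.536). The first of these passed without Pregnancy replicate 3 (adjusted p = 0.0358) or Year 1 replicate 1 (0.0404). The second passed without Year 1 replicate 1 (-2.52, adjusted p = 0.0154) or Pregnancy replicate 3 (0.0323), and with upper-quartile scaling (0.0496). DESeq2 called PRPH lower at Puberty and at Year 1 (adjusted p = 0.0285 and 0.0288), as did limma voom (0.00026 and 0.000125), and voom also in Pregnancy (0.00517). A fit of only Day 3 and Puberty called it too (adjusted p = 0.0112), and without both libraries that stood apart edgeR called it at all 3 later stages (0.00551, 0.00169 and 0.0217).

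S100B had by far the highest level of the 6 genes on the TPM scale. It lies on an unplaced scaffold (gene ID 100623510). Day 3 libraries held 79.9, 87.9 and 92.1 TPM and Puberty libraries 50.4, 37.6 and 55.8 TPM. Year 1 libraries held 36.8, 11.2 and 17.9 TPM and Pregnancy libraries 80.8, 74.8 and 57.8 TPM. On the TPM scale every Year 1 library was below every library of the other stages, and the Day 3 and Pregnancy libraries overlapped. On TMM-scaled CPM, the scale of the tests, Year 1 and Puberty overlapped, with Year 1 replicate 1 at 38.1 and Puberty replicate 2 at 33.7, and every Pregnancy library was above every Day 3 library. S100B fell by 1.26 ± 0.29 on the log2 scale between Day 3 and Year 1 (edgeR adjusted p = 0.00517), called in all 12 fits that left out 1 library. The log2 difference of 1.60 ± 0.29 from Year 1 to Pregnancy passed in edgeR (adjusted p = 0.0401), yet it was called in only 2 of those 12 fits, without Year 1 replicate 1 or without Pregnancy replicate 3. In the other 10 fits it missed, with the highest adjusted p = 0.153 without Year 1 replicate 3, and it missed with the replicate number as a block (0.0855) and with only these 2 stages fitted (0.289). From Puberty to Year 1 the log2 change of -0.74 ± 0.28 did not pass (edgeR adjusted p = 0.116) but did without Year 1 replicate 1 (-1.13, adjusted p = 0.00582). The mean TPM was lower in Pregnancy than at Day 3 (71.1 ± 11.9 against 86.6 ± 6.17, SD, n = 3), whereas the fitted log2 change on TMM-scaled counts was 0.34 ± 0.28 (edgeR adjusted p = 0.372); the direction between these 2 stages depends on the scale.

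The S100B value needs care. The deposited gene model counts 27 RNAcentral transcripts beside 2 RefSeq transcripts and begins 20540 bases before the RefSeq gene, so that its reads and its length may not be those of the S100B mRNA alone. RNAcentral transcripts stood in 4580 gene models, 24.4% of all, and 227 models held at least as many as S100B. The other glial genes were far lower: the ratio of S100B to SOX10 in TPM was 35.7 to 59.7 at Day 3, 73.7 to 140 at Puberty and 119 to 525 in Pregnancy, with 76.7 and 199 in the 2 Year 1 libraries where SOX10 was above 0. The ratio was therefore lowest in the 3 Day 3 libraries.

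SOX10 (chromosome 5, 9890439 to 9901746, plus strand, gene ID 414903) was at 1.34, 2.46 and 1.81 TPM at Day 3, at 36 to 63 counts. It was at 0.36, 0.51 and 0.44 TPM at Puberty, at 0.48, 0 and 0.09 TPM at Year 1 and at 0.68, 0.49 and 0.11 TPM in Pregnancy. Every Day 3 library was above every later one, and the 3 later stages overlapped. The 0 in Year 1 replicate 2 allows a level of up to 0.192 CPM (counts scaled to the library total), taking 3 counts as the limit, which covers counting error only. SOX10 fell by 2.64 ± 0.87 on the log2 scale between Day 3 and Year 1 (edgeR adjusted p = 0.0293). That call was lost without Day 3 replicate 2 (adjusted p = 0.084), Day 3 replicate 3 (0.062) or Year 1 replicate 3 (0.0987), and when only these 2 stages were fitted (0.067). The log2 changes from Day 3 to Puberty and to Pregnancy, -1.81 ± 0.82 and -1.80 ± 0.82, did not pass in edgeR (adjusted p = 0.122 and 0.113). Both passed without Year 1 replicate 1 (0.0445 and 0.0414) or Year 1 replicate 2 (0.0478 and 0.0433).

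NGFR (chromosome 12, 25699410 to 25720355, plus strand, gene ID 100525607) had the lowest adjusted p of the 6 genes in the test of any difference among stages (edgeR, 0.000812). It was at 3.36, 2.13 and 3.21 TPM at Day 3 and at 0.32, 0.26 and 0.35 TPM at Puberty. It was at 0.17, 0.03 and 0.11 TPM at Year 1 and at 0.21, 0.30 and 0.05 TPM in Pregnancy. All Day 3 libraries were above all 9 later libraries, which held between 1 and 12 counts against 65 to 108 at Day 3. The log2 change of NGFR from Day 3 was -2.89 ± 0.57 at Puberty, -4.07 ± 0.63 at Year 1 and -3.29 ± 0.59 in Pregnancy (edgeR adjusted p = 0.00491, 0.000753 and 0.00233). Each of these 3 falls was called in all 12 fits that left out 1 library. Among the 3 later stages no difference in NGFR passed in edgeR with all 12 libraries. Without both libraries that stood apart, Year 1 was called lower than Puberty (-1.60, adjusted p = 0.0451). At these counts the 95% interval from Puberty to Year 1 over all libraries ran from -2.56 to 0.19.

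**Figure D1:**
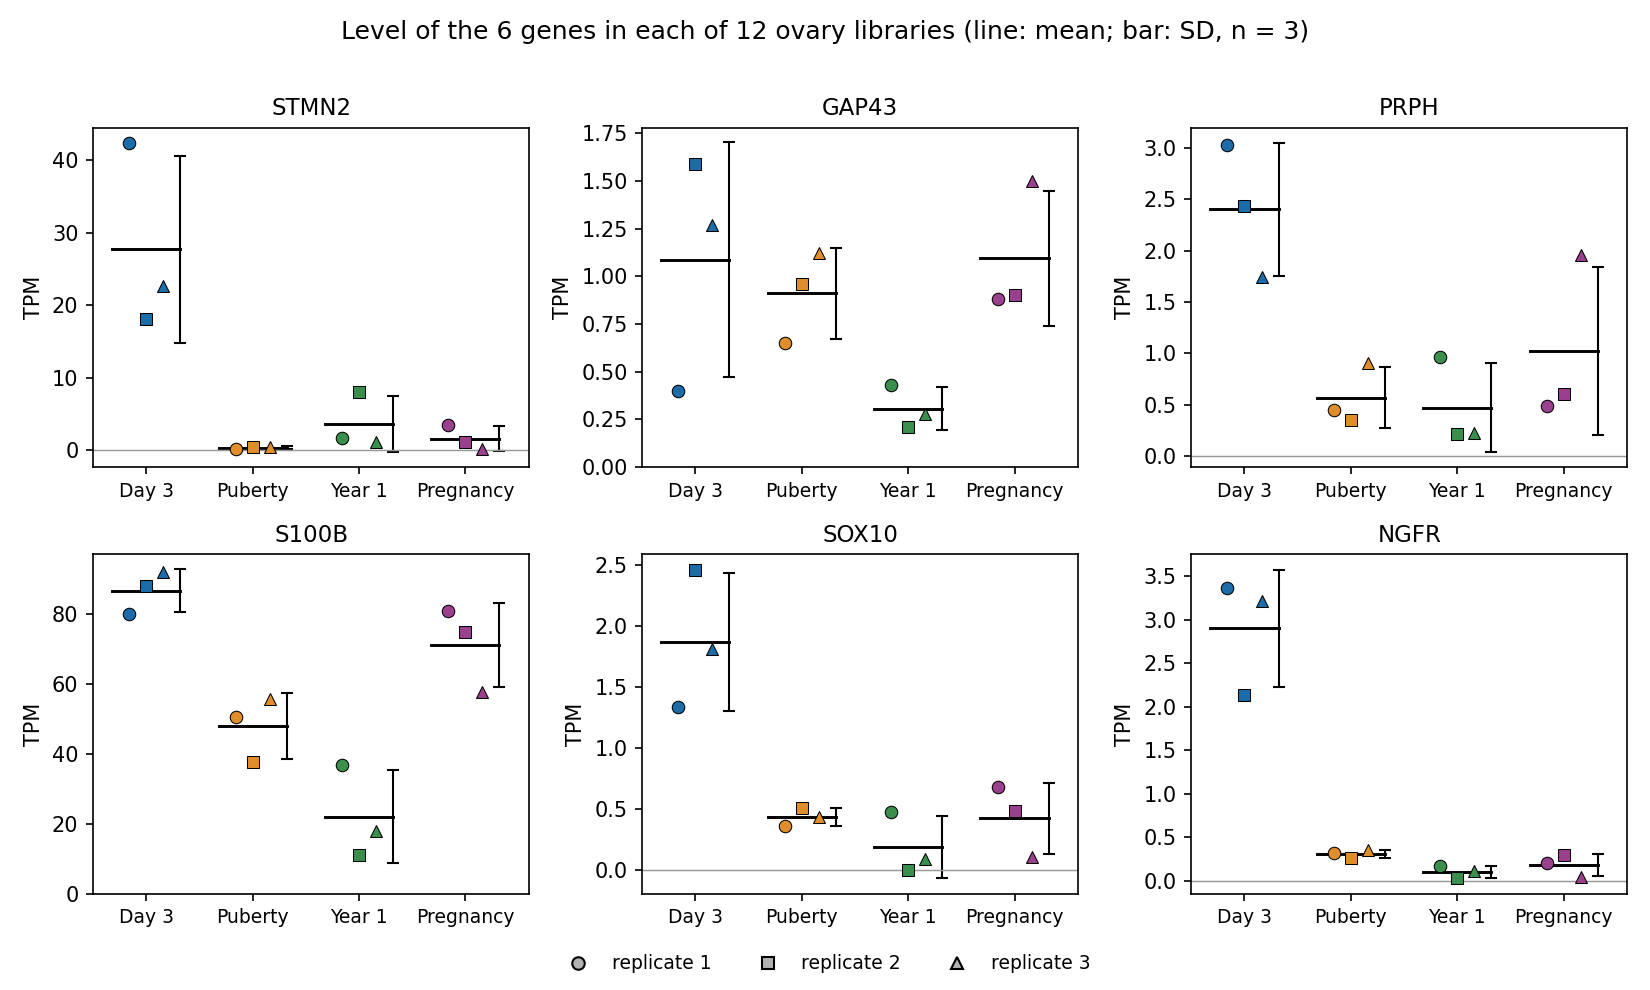
Level of each of the 6 genes in TPM (vertical axis, from 0, a separate scale for each gene) by stage. Points are libraries, their shape the replicate number, lines the stage mean and bars the SD of 3; NGFR and SOX10 are higher in the Day 3 libraries than in all others, while S100B in Pregnancy overlaps Day 3 on this scale.

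A large share of all genes also differed from Day 3, and the calls of the 6 are given beside it. Between Day 3 and Puberty 2 of the 6 genes fell and none rose, where 28.7% of all tested genes were called, 17.2% lower and 11.5% higher. Between Day 3 and Year 1, 3 of the 6 fell, against 48% of all genes called, 24% in each direction. Between Day 3 and Pregnancy 2 fell, against 34% called, 18.1% lower and 15.9% higher. In the test of any difference among the stages 3 of the 6 (NGFR, STMN2 and S100B) passed, against 46% of all genes. The 3 comparisons with Day 3 share its libraries, and with 6 genes such counts do not set the 6 apart from the rest.

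Among the later stages calls were rare for all genes. From Puberty to Year 1 none of the 6 passed in edgeR, where 0.0255% of genes were called (0.00637% higher and 0.0191% lower). STMN2 and S100B were at an unadjusted p of 0.00388 and 0.0258, DESeq2 called 1 of the 6 and limma voom 3. Of all 15699 genes DESeq2 called 3303 in that pair and limma voom 9352. From Year 1 to Pregnancy edgeR called S100B alone of the 6, against 2.96% of genes (1.34% higher and 1.62% lower). SOX10 was also called in that pair by limma voom (2.18, adjusted p = 0.0139) and by edgeR without both libraries that stood apart (2.93, adjusted p = 0.0148). Between Puberty and Pregnancy edgeR called none of the 6, and 0 of all genes (0%), with 1156 genes at an unadjusted p under 0.05. DESeq2 called 97 genes and limma voom 117 in that pair, and of the 6 genes DESeq2 called none and limma voom 1. The lowest unadjusted p of the 6 there were those of S100B (0.0117, log2 change 0.86 ± 0.28) and STMN2 (0.0395, 2.37 ± 1.01).

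**Figure D2:**
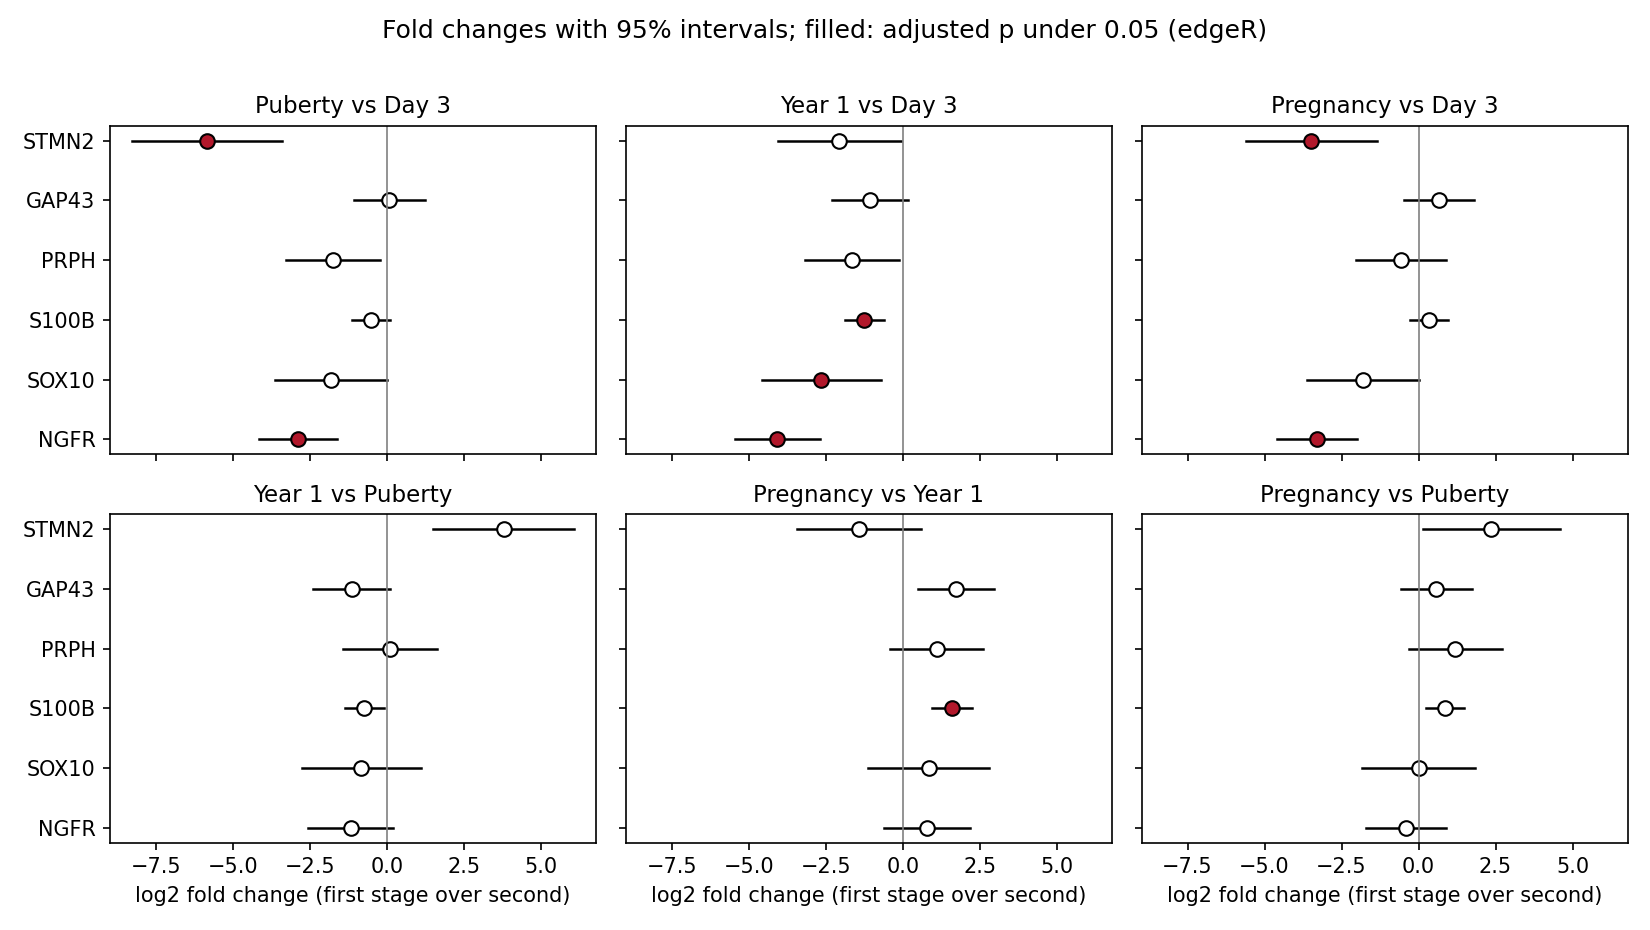
Log2 fold change (horizontal axis, first-named stage over second) of the 6 genes in the 6 pairs of stages, with 95% intervals from edgeR; filled points have an adjusted p under 0.05. The filled points lie left of 0 in the 3 comparisons with Day 3, and S100B in Pregnancy vs Year 1 is the only filled point right of 0.

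The other neuronal genes varied in the stage at which they were highest. In a list of 35 genes of autonomic and sensory neurons 24 were tested beside the 3 described above. Of these 24, 8 fell and 1 rose from Day 3 to Puberty, 9 fell and 2 rose to Year 1, and 8 fell and none rose to Pregnancy. Of all tested genes, 17.2% were called lower and 11.5% higher at Puberty, 24% each way at Year 1, and 18.1% lower and 15.9% higher in Pregnancy. The median log2 change of the 24 was -0.56, -0.68 and -0.83, against 0.04, 0.03 and 0.10 over all tested genes. The mean TPM was highest at Day 3 for 12 of the 24, which is 50.0%, against 57.9% of all tested genes. Summed over the 31 list genes present, the 3 described above included, the level did not fall in every later library. It was 571 to 699 TPM at Day 3, 237 to 352 at Puberty and 334 to 574 at Year 1. In Pregnancy the sum was 239 and 206 TPM in replicates 1 and 2 but 1178 in replicate 3. MAPT, the microtubule protein tau of axons, fell from 69.0 ± 25.1 to 6.00 ± 0.53 TPM (SD, n = 3 here and below) between Day 3 and Puberty, a log2 change of -3.18 ± 0.32 (edgeR adjusted p = 0.000256). INA (alpha-internexin, a filament protein of neurons) fell by 5.47 ± 0.97 (edgeR adjusted p = 0.00302), from 77 to 168 counts per library to 1 to 4. Its log2 changes from Day 3 to Year 1 and to Pregnancy were -5.89 and -5.13. Counts at Day 3 alone could admit such a gene to the tests, so that its fall was favoured in advance. ELAVL2 and ELAVL3, RNA-binding proteins of neurons, fell by 3.37 ± 0.71 and 3.11 ± 0.81 (edgeR adjusted p = 0.00679 and 0.0171). ELAVL3 lost its call in 4 of the 12 fits that left out 1 library, with the highest adjusted p = 0.0737 without Puberty replicate 2. ELAVL2 is also made by oocytes, whose marker genes were at their highest at Day 3; the part of oocytes in its level was not tested.

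Neurofilament genes ran differently from STMN2 within Year 1. NEFM and NEFL, the medium and light neurofilament genes, are named here after their values were seen. NEFM had 0, 444 and 182 counts in Year 1 replicates 1 to 3, and NEFL 2, 82 and 49, against 3 to 41 for both genes at Day 3. STMN2 had 34, 174 and 26 counts in the same 3 libraries, so replicate 2 was highest for all 3 genes, while replicate 3 was high for the neurofilaments and lowest for STMN2. The log2 change of NEFM from Day 3 to Year 1, 3.94 ± 1.61, did not pass in edgeR (adjusted p = 0.0642).

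Genes that make or package nerve transmitters ranged widely in level, and the enzymes that define noradrenergic neurons were close to absent from the counts. TH and DBH, enzymes of noradrenaline synthesis, and CHAT, which makes acetylcholine, are named after their values were seen. TH had 1 count in 1 Day 3 library and 0 in the other 11, and DBH had at most 2 counts in any library. CHAT had 3 to 6 counts at Day 3 and 0 in every later library. Of 29 listed transmitter genes 27 were present in the data, and 15 had enough counts to be tested. In each comparison with Day 3, 9 of these 15 fell while none rose. Of all genes, 17.2%, 24% and 18.1% were called lower at Puberty, Year 1 and Pregnancy. Counts at Day 3 alone could admit a gene to the tests, in this list as among all genes. For such a gene a fall from Day 3 was favoured in advance. The median log2 change of the 15 was -2.15 at Puberty, -3.23 at Year 1 (-3.21 with the 2 genes that had a stage at 0 put at the bound of 3 counts per library) and -2.67 in Pregnancy, against 0.04, 0.03 and 0.10 over all genes. SLC18A2, the vesicular monoamine transporter, fell from 32.1 ± 9.26 to 2.47 ± 0.76 TPM between Day 3 and Puberty, by 3.36 ± 0.76 on the log2 scale (edgeR adjusted p = 0.00907). ISL1, a transcription factor of sympathetic and sensory neurons among other cells, fell by 3.99 ± 0.71 in that comparison (edgeR adjusted p = 0.00488) and had 0 counts in all 3 Year 1 libraries. INSM1 and PHOX2A, transcription factors of neuroendocrine and autonomic cells, fell by 2.15 ± 0.61 and 1.28 ± 0.33 (edgeR adjusted p = 0.0235 and 0.0163). The call of INSM1 at Puberty was lost in 6 of the 12 fits without 1 library (highest adjusted p = 0.0816, without Puberty replicate 3), and that of PHOX2A in 4 (0.0662, without Puberty replicate 2).

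The Schwann cell list moved in more than 1 direction. Of 27 genes tested beside S100B, SOX10 and NGFR, 6 fell and 3 rose from Day 3 to Puberty, 10 fell and 4 rose to Year 1, and 7 fell and 2 rose to Pregnancy. The shares of all genes were 17.2% lower and 11.5% higher, 24% each way, and 18.1% lower and 15.9% higher. Their median log2 change was -0.41, -0.73 and -0.52, against 0.04, 0.03 and 0.10 over all genes tested. The mean was highest at Day 3 for 16 of the 27 (59.3%, against 57.9% of all genes) and lowest at Year 1 for 17 (63.0%, against 51.3%). Summed over all 35 genes of the list, S100B, SOX10 and NGFR included, the stages from Day 3 to Year 1 overlapped. The sums were 541 to 568 TPM at Day 3, 449 to 587 at Puberty, 376 to 581 at Year 1 and 330 to 437 in Pregnancy. ERBB3, the neuregulin receptor through which axons keep Schwann cells alive, fell by 2.18 ± 0.49 from Day 3 to Puberty (edgeR adjusted p = 0.00884). It was at 5.43, 5.21 and 8.80 TPM at Day 3 and between 1.10 and 1.18 TPM at Puberty, and its falls to all 3 later stages were called in all 12 fits without 1 library. MAL, a myelin membrane protein, fell by 3.67 ± 0.91 at Puberty (edgeR adjusted p = 0.0134), called in 10 of 12 fits without 1 library (highest adjusted p = 0.0594, without Puberty replicate 2). POU3F1, a transcription factor of Schwann cells before they myelinate, fell by 2.39 ± 0.72 (edgeR adjusted p = 0.0302), called in 7 of 12 (highest adjusted p = 0.102, without Puberty replicate 1). NCAM1, an adhesion molecule of nonmyelinating Schwann cells and many other cells, rose by 2.301 ± 0.306 (edgeR adjusted p = 0.000824), from 15.6 TPM or less in the Day 3 libraries to 41.5 TPM or more in those of Puberty.

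FOXD3, a factor of the neural crest and early glia, is named after its values were seen. It had 24, 37 and 37 counts at Day 3, then 5, 8 and 5 at Puberty, 3, 0 and 0 at Year 1 and 7, 5 and 1 in Pregnancy. Like SOX10, it was higher in the 3 Day 3 libraries than in all later ones. FOXD3 fell by 4.41 ± 0.90 from Day 3 to Year 1 (edgeR adjusted p = 0.00297), called in all 12 fits without 1 library. With at most 8 counts in any later library, FOXD3 entered the tests through its Day 3 counts. A fall from Day 3 was therefore favoured in advance.

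**Figure D3:**
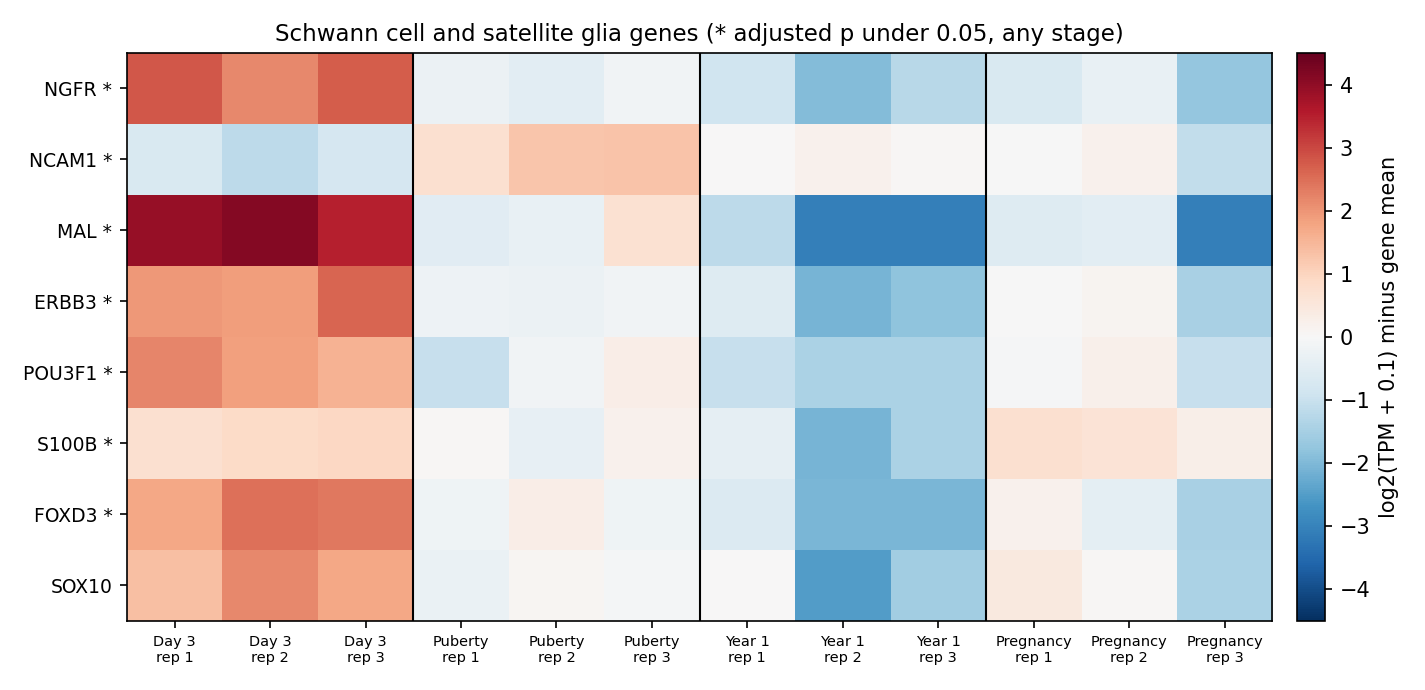
Levels in the 12 libraries of the 8 genes named here from the Schwann cell and satellite glia list, as log2(TPM + 0.1) minus the mean of the gene (colour). Genes are ordered by the p-value of any difference among stages, and an asterisk marks an adjusted p under 0.05; NGFR, MAL, ERBB3 and FOXD3 are high in the 3 Day 3 libraries, while NCAM1 is low there.

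Receptors for neurotrophins differed in the stages where they were high. Neurotrophins are secreted factors that keep neurons alive; NGFR binds all of them, and NTRK2 and NTRK3 are the tyrosine kinase receptors for BDNF and NTF3. NTRK2 was, like NGFR, higher in the Day 3 libraries than in all later ones. It was at 8.02, 6.73 and 6.88 TPM at Day 3 and at no more than 0.45 TPM in any later library. It fell by 4.15 ± 0.61 to Puberty, by 5.78 ± 0.68 to Year 1 and by 4.16 ± 0.62 to Pregnancy (edgeR adjusted p = 0.00139, 0.000223 and 0.000987), called in all 12 fits without 1 library. NTRK3, named after its values were seen, was at 23.3 to 24.5 TPM at Day 3, at 1.27 to 2.15 TPM at Puberty and at 1.58, 136 and 136 TPM at Year 1. In Pregnancy it was at 2.51, 2.75 and 0.55 TPM. Year 1 replicates 2 and 3 thus held the 2 highest values, in the same libraries where NGFR was at 0.03 and 0.11 TPM. NTRK3 fell by 3.61 ± 1.15 from Day 3 to Puberty (edgeR adjusted p = 0.038), called in 6 of 12 fits without 1 library (highest adjusted p = 0.115, without Puberty replicate 1). It fell by 5.76 ± 1.26 from Year 1 to Pregnancy (edgeR adjusted p = 0.046), called in 2 of 12 such fits (highest adjusted p = 0.155, without Year 1 replicate 3). The 2 libraries with high NTRK3 also had the high theca and luteal sums given above, as Pregnancy replicate 3 had without high NTRK3; the part of those cells was not tested. RET, the signalling receptor for GDNF family ligands, fell from 14.4 ± 2.12 to 0.92 ± 0.23 TPM between Day 3 and Puberty (log2 change -3.64 ± 0.60, edgeR adjusted p = 0.00212). SORCS3, a sorting receptor of the sortilin family, fell by 3.05 ± 0.66 (edgeR adjusted p = 0.00749).

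Of 25 tested genes in the list of neurotrophins, GDNF family ligands and receptors other than NGFR, 7 fell and 1 rose from Day 3 to Puberty, 11 fell and 2 rose to Year 1, and 6 fell and 1 rose to Pregnancy. Over all genes 17.2%, 24% and 18.1% were lower and 11.5%, 24% and 15.9% higher. The median log2 change of the 25 was -0.79, -0.92 and -0.73, against 0.04, 0.03 and 0.10 over all genes. From Year 1 to Pregnancy 2 fell and none rose, where 1.62% of all genes were lower and 1.34% higher. The ligand NTF3 is named after its values were seen. NTF3 was the one that rose at Puberty, by 2.41 ± 0.50 (edgeR adjusted p = 0.00626), from 2.24 ± 0.36 to 7.65 ± 1.67 TPM, while the gene of its receptor, NTRK3, fell.

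**Figure D4:**
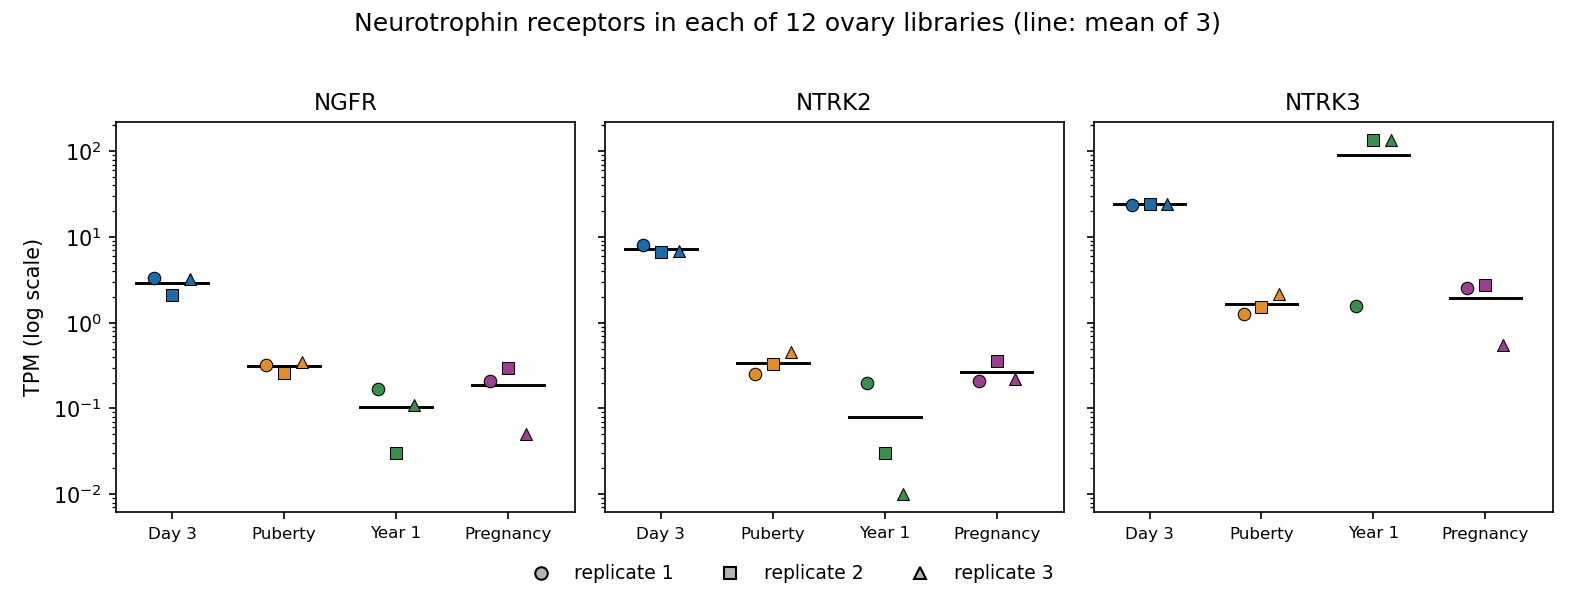
NGFR, NTRK2 and NTRK3 in TPM (vertical log axis) by stage; points are libraries, their shape the replicate number, and lines the mean of 3. NTRK3 reaches 136 TPM in Year 1 replicates 2 and 3, where NGFR and NTRK2 are near their lowest.

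Receptors for sympathetic transmitters sit on the target cells of nerves as well as on the nerves. Of 17 tested, 6 fell and 2 rose from Day 3 to Puberty, 5 fell and 4 rose to Year 1, and 3 fell and 1 rose to Pregnancy, with median log2 changes of -1.24, -0.60 and -0.93 against 0.04, 0.03 and 0.10 over all genes. In the same 3 comparisons 17.2%, 24% and 18.1% of all genes were lower and 11.5%, 24% and 15.9% higher. ADRA2A, the alpha-2A adrenergic receptor, fell by 4.94 ± 0.89 at Puberty (edgeR adjusted p = 0.00328). It was at 27.2, 16.9 and 22.3 TPM at Day 3 and at 15 counts or fewer in each later library. Receptor genes for neuropeptide Y, a peptide of sympathetic fibres, had their lowest means at Day 3. NPY2R rose by 4.57 ± 0.59 from Day 3 to Puberty (edgeR adjusted p = 0.000696), from 0.34 ± 0.18 to 6.32 ± 3.89 TPM. NPY1R rose by 4.63 ± 0.83 from Day 3 to Year 1 (edgeR adjusted p = 0.00161), where it was at 10.1, 104 and 184 TPM. NPY5R rose by 7.26 ± 1.47 over the same stages (edgeR adjusted p = 0.00288), with Year 1 libraries at 0.36, 6.85 and 16.4 TPM. As with NTRK3, the high values were in Year 1 replicates 2 and 3. NPY1R fell by 3.39 ± 0.79 from Year 1 to Pregnancy (edgeR adjusted p = 0.0478), called in 2 of 12 fits without 1 library (highest adjusted p = 0.168, without Year 1 replicate 3).

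Axon guidance genes did not lean one way. Of 29 tested, 6 fell and 4 rose from Day 3 to Puberty, 8 fell and 8 rose to Year 1, and 8 fell and 6 rose to Pregnancy, and from Year 1 to Pregnancy 2 fell and 2 rose. Among all genes 17.2%, 24%, 18.1% and 1.62% were lower in these comparisons and 11.5%, 24%, 15.9% and 1.34% higher. The median log2 change was -0.07 at Puberty, with 0.16 at Year 1 and 0.16 in Pregnancy, against 0.04, 0.03 and 0.10 over all genes; the Year 1 median turned to -0.08 with upper-quartile scaling. The netrin receptors UNC5A and UNC5D fell at Puberty, with log2 changes of -3.93 ± 0.55 and -3.97 ± 0.39 (edgeR adjusted p = 0.001 and 0.000228). The repellent ligand SEMA3D fell by 1.88 ± 0.33 (edgeR adjusted p = 0.00275). UNC5A was at 58.7 to 74.2 TPM at Day 3 and at 2.60 to 4.11 TPM at Puberty. PLXNA1, a receptor for semaphorins, rose by 0.91 ± 0.15 (edgeR adjusted p = 0.00247).

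Within a stage the 3 glial genes deviated together more than the 3 neuronal genes did. Taken as deviations of log2 CPM from the stage mean over 12 libraries, Pearson's r was 0.86 between S100B and SOX10, 0.78 between SOX10 and NGFR and 0.68 between S100B and NGFR. For STMN2 it was -0.55 with PRPH and -0.57 with GAP43, and for GAP43 with PRPH it was 0.33. These are descriptions over libraries that share a stage and its scaling, and the Year 1 and Pregnancy libraries that stood apart weigh heavily in them. SOX10 deviated by 1.55 in Year 1 replicate 1, by -1.54 in Year 1 replicate 2 and by -1.13 in Pregnancy replicate 3. NGFR deviated by 0.53, -0.81 and -0.99 in the same libraries, and S100B by 0.67, -0.63 and -0.21. All 3 glial genes were thus lowest in Year 1 replicate 2 and in Pregnancy replicate 3 within their stages. STMN2 deviated by 1.78 in Year 1 replicate 2 and by -1.76 in Pregnancy replicate 3, and PRPH by -0.51 and 1.25. The theca and luteal sums were highest within their stages in both of these libraries; their part in the glial values was not tested.

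**Figure D5:**
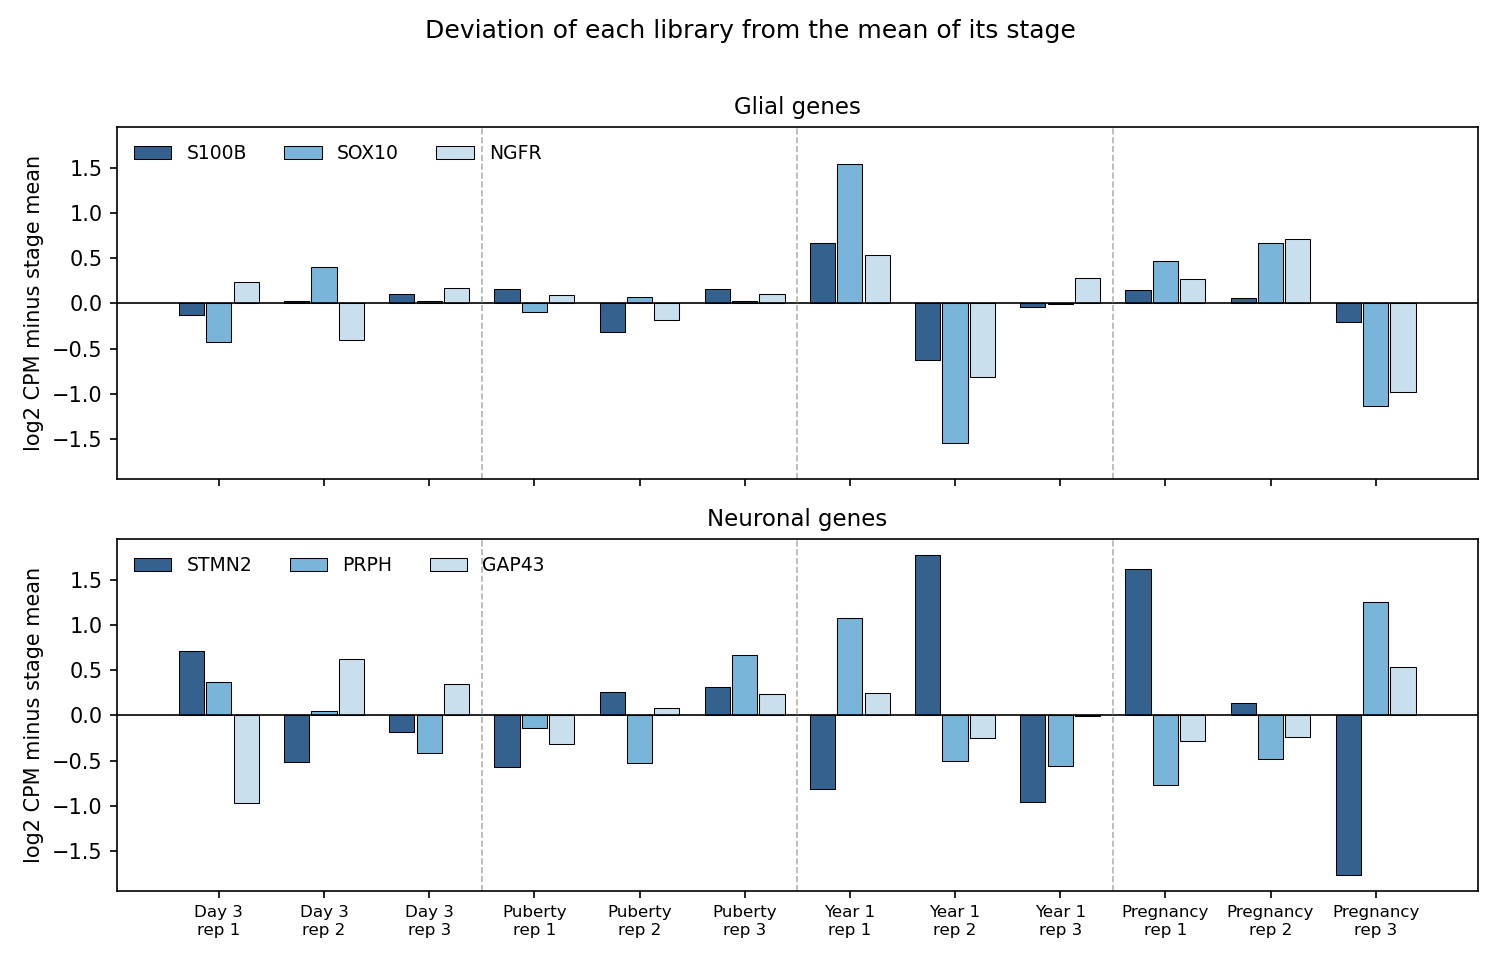
Deviation of each library from the mean of its stage, in log2 CPM (vertical axis), for the 3 glial genes (upper panel) and the 3 neuronal genes (lower panel); each bar is 1 gene in 1 library. The glial bars point the same way in Year 1 replicates 1 and 2 and in all 3 Pregnancy libraries, whereas STMN2 and PRPH point in opposite directions in Year 1 replicates 1 and 2 and in Pregnancy replicates 1, 2 and 3.

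Markers of the other cell types that make these genes were also measured. Of 8 melanocyte genes, MLANA and TYRP1 had at most 2 counts in any library, while TYR, which makes melanin, had 40 to 51 counts at Day 3 and at most 1 in each later library. Other genes of this list rose. From Day 3 to Year 1, 2 of 6 tested rose and 1 fell, against 24% of all genes each way. EDNRB rose by 4.22 ± 0.78 and KIT by 1.90 ± 0.36 (edgeR adjusted p = 0.00185 and 0.00211). MITF rose by 1.63 ± 0.38 from Day 3 to Puberty (edgeR adjusted p = 0.0105). The sum of the 8 genes was 42.5 to 51.0 TPM at Day 3, 55.4 to 84.8 at Puberty, 42.3 to 211 at Year 1 and 31.1 to 53.1 in Pregnancy. The 7 cartilage genes present summed to 38.7 to 65.5 TPM at Day 3, 24.4 to 30.6 at Puberty, 3.63 to 17.1 at Year 1 and 3.14 to 17.2 in Pregnancy. COL2A1, their defining collagen, had 816 to 2033 counts at Day 3 and 0 to 226 at Year 1. The 9 fat cell genes present summed to 64.3 to 71.9 TPM at Day 3, 101 to 213 at Puberty, 40.5 to 132 at Year 1 and 92.3 to 144 in Pregnancy, with LEP at no more than 6 counts. The 10 stromal genes summed to 3409 to 5378 TPM at Day 3 and to 1602 to 5135 TPM in the later libraries. Their part in the levels of SOX10, S100B and NGFR was not tested. The 7 chromaffin cell genes, a type that shares neuronal secretory genes, summed to 685 to 963 TPM at Day 3 and to 8.08 to 609 later. CHGA made up most of this, at 681 to 958 TPM at Day 3, while TH and DBH were at or near 0. The log2 changes of CHGA from Day 3 to Puberty, Year 1 and Pregnancy were -0.44, -2.06 and -0.81. None of them passed (edgeR adjusted p = 0.778, 0.138 and 0.574).

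Summed levels of the remaining lists moved with stage too. The 8 endothelial genes summed to 235 to 255 TPM at Day 3 and 244 to 469 later, and the 12 smooth muscle genes to 640 to 890 TPM at Day 3 and 1202 to 4423 later. The 8 granulosa genes summed to 380 to 458 TPM at Day 3 and 681 to 13127 later. The 9 genes of surface and oviduct epithelium present summed to 404 to 634 TPM at Day 3 and 23.7 to 87.8 later. The 7 skeletal muscle genes present summed to 30.7 to 31.8 TPM at Day 3 and 1.26 to 15.1 later. The part of these tissues in the fall of the nerve and glial genes after Day 3 was not tested.

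For each of the 6 the genes with the most similar levels over the 12 libraries were ranked. By Pearson's r of log2 CPM among 12512 or 12513 genes, STMN2 was most like CCDC160 (r = 0.92), GAP43 like the ciliary gene BBS4 (0.92), PRPH like WNT5B, a secreted Wnt ligand (0.93), and S100B like CDH3, which encodes P-cadherin (0.96). SOX10 was most like IFT172, of cilia (0.98), and NGFR like CXHXorf67 (0.985), with SYCP3, a protein of meiotic chromosomes, the third (0.98). CHRNA3, a nicotinic receptor subunit of autonomic ganglia, was the second for PRPH (0.92). It ranked 19 by Spearman's rho and 210 without both libraries that stood apart. By deviations from the stage means the leading genes were PLD4 for STMN2 (0.96), BAZ2A for GAP43 (0.98), DNAJB2 for PRPH (0.93), C4H1orf56 for S100B (0.97), MYH11 for SOX10 (0.99) and SCARF2 for NGFR (0.97). With so many genes and 12 libraries, an r of this size is a ranking only.

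In the authors' deposited table, which holds DESeq2 fold changes, the log2 changes of the 6 genes from Day 3 to Puberty ran from -5.87 for STMN2 to 0.08 for GAP43. The authors' deposited table gives a q-value of 0.00102 for PRPH, 0.0177 for S100B and 0.000959 for SOX10 in that comparison, where edgeR made no call. The authors' deposited table also gives a q-value of 0.00289 for STMN2 from Puberty to Year 1, at a log2 change of 3.82. Further q-values of the authors' deposited table under 0.05 without an edgeR call were 0.0308 for STMN2 and 0.0202 for PRPH from Day 3 to Year 1. From Day 3 to Pregnancy the authors' q-value was 0.0129 for SOX10, also without an edgeR call.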

How the data were processed

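Gene levels were taken from 1 deposited table of 18753 genes and 12 mRNA libraries. The labels also name 12 small RNA samples, which are not used here. Bowtie2 2.3.4.3, RSEM 1.3.1, DESeq2 1.4.5 and the build Sscrofa11.1 are named in the submitters' processing notes. The deposited expected counts per gene, made by the authors, were rounded to whole numbers; 92.96% to 94.68% of values per library were whole already. The deposited TPM values, scaled by the authors to the library total and to gene length, were used as levels. The authors' log2 fold changes and the authors' DESeq2 q-values were copied as deposited. Whether the authors' counting used strand is not given in the sources used here.

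Counts were tested with edgeR 4.0.16 (R 4.3.3) by the quasi-likelihood test with TMM scaling. Low genes were removed by filterByExpr (min.count 10), and 15699 genes stayed, all 6 members among them. A gene stayed if it had enough counts in as many libraries as 1 stage holds, so the counts of 1 stage could suffice. For a gene of any list admitted by its Day 3 counts alone, a fall from Day 3 was favoured in advance. All 12 libraries entered 1 fit. Tests of 6 pairs of stages and of any difference among the 4 stages used Benjamini-Hochberg adjustment at 0.05 over all genes tested. The edgeR SE was derived from that fit, as the size of the log2 change divided by the square root of its F statistic. The 95% intervals combine this SE with a quantile of the t distribution. Each p-value rests on 3 libraries a stage, and the spread it is set against can come from the sow or from the fragment. That spread was estimated over all 12 libraries, so the libraries that stood apart also entered the tests of other stages. The procedure was tested on simulated data. Alternatives were RLE and upper-quartile scaling, no count filter, DESeq2 1.42.0, limma 3.58.1 voom with quality weights, a fit of only the 2 stages compared, the replicate number as a block, leaving out each library, and dropping the pair of Year 1 replicate 1 and Pregnancy replicate 3. Log2 CPM used a prior count of 2, and genes ranked by likeness had a mean log2 CPM of at least 1.

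The members and the 6 nerve and glia lists and 12 marker lists were chosen with earlier results of these data known. From each nerve and glia list the text names up to 4 genes with the lowest p for any difference among stages, and says where a gene was named after its values were seen; some genes of the lists are not reported here by name, though the counts include them.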

Additional observations from a re-analysis of the deposited data

How the results depend on the processing

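Of the 6 genes, edgeR called 3 for any stage, 2 from Day 3 to Puberty, 0 from Puberty to Year 1, 1 from Year 1 to Pregnancy, 3 from Day 3 to Year 1, 2 from Day 3 to Pregnancy and 0 from Puberty to Pregnancy. DESeq2 called 5 for any stage, 4 for Puberty vs Day 3, 1 for Year 1 vs Puberty and 5 for Year 1 vs Day 3. Of all 15699 genes it called 9441, 5681, 3303 and 8452 in these comparisons. Limma voom called 5, 5, 3, 2, 5, 5 and 1 in the order of the first sentence. Of all 15699 genes it called 13454, 9222, 9352, 8825, 11424, 8703 and 117 in that order. Beside such shares the counts do not set the 6 apart. With only the 2 stages fitted 5 were called for Puberty vs Day 3 and 0 for Pregnancy vs Year 1, against 7872 of 15381 and 0 of 14183 genes. Without both libraries that stood apart, 5 were called for any stage, 5 for Puberty vs Day 3, 4 for Year 1 vs Puberty and 2 for Pregnancy vs Year 1. Of 16014 genes that fit called 12250, 8378, 8262 and 8005 in these comparisons. Without 1 library at a time the calls ran from 3 to 5 for any stage, 2 to 4 for Puberty vs Day 3, 0 to 2 for Year 1 vs Puberty, 0 to 1 for Pregnancy vs Year 1, 2 to 5 for Year 1 vs Day 3 and 1 to 3 for Pregnancy vs Day 3.

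With the replicate block, 0 were called for Pregnancy vs Year 1. Over all genes, deviations from the stage mean in same-numbered libraries correlated at -0.393 to 0.402, and 4 of 12 libraries correlated best with their own number. The labels give the number no meaning. A batch or handling order shared by same-numbered libraries was not tested, and these correlations cannot show its absence.

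Values not past the threshold changed sign as follows. GAP43 in Puberty vs Day 3 was -0.00206 with upper-quartile scaling and -0.35 to 0.42 without 1 library. PRPH in Year 1 vs Puberty was -0.28 with voom, -0.76 without both libraries and -0.74 to 0.57 without 1. SOX10 in Pregnancy vs Puberty was -0.00853 with RLE, -0.00884 with upper-quartile scaling, -0.00984 with DESeq2, -0.11 with the replicate block and -0.36 to 0.42 without 1 library. NGFR there was 0.0031 without both and -0.90 to 0.0023 without 1. STMN2 in Pregnancy vs Year 1 was -2.60 to 0.074 without 1. The cause was not tested.

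Of 24 stage ranks 18 were the same by TMM-scaled CPM. Of 36 genes named for likeness 10 were named again by Spearman's rho and 2 without both libraries.

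Over all genes, Puberty vs Day 3 had 4509 calls against 9222 with voom, 7872 with 2 stages, 8378 without both libraries and 2644, 2964, 2921 and 2933 without Day 3 replicate 2, Day 3 replicate 3, Puberty replicate 1 and Puberty replicate 2. Year 1 vs Puberty had 4 against 3303 with DESeq2, 9352 with voom, 0 with 2 stages, 0 with the block, 8262 without both and 0 to 6159 without 1 library (6159 without Year 1 replicate 1). Pregnancy vs Year 1 had 465 against 131 with no filter, 2907 with DESeq2, 8825 with voom, 0 with 2 stages, 0 with the block, 8005 without both and 0 to 4913 without 1 (4913 without Year 1 replicate 1). Year 1 vs Day 3 had 7532 against 11424 with voom. Pregnancy vs Day 3 had 5335 against 8703 with voom and 3302 and 3522 without Day 3 replicates 2 and 3. Any stage had 7220 against 13454 with voom, 12250 without both and 4544 without Day 3 replicate 2. Pregnancy vs Puberty had 0 against 97 with DESeq2, 117 with voom and 3 without both.

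Upper-quartile scaling moved the split of higher and lower calls from 3767 and 3765 to 2785 and 4424 in Year 1 vs Day 3, from 2494 and 2841 to 1774 and 3104 in Pregnancy vs Day 3, and from 210 and 255 to 172 and 154 in Pregnancy vs Year 1. It moved the median log2 change of all genes to -0.20 in Year 1 vs Day 3 and to -0.17 in Year 1 vs Puberty. Without both libraries that stood apart, Puberty vs Day 3 calls in the Schwann list were 5 higher and 12 lower of 29 genes. In the neurotrophin list they were 4 and 11 of 25. Over all genes that fit called 4051 higher and 4327 lower of 16014, against 1807 and 2702 of 15699 with all 12 libraries. For the lists this alternative was added after seeing the data. Depth limits SOX10, NGFR and GAP43, which had 22 counts or fewer in every later library.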
